A study of Mus musculus with 17 samples.

Results

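The genes described here are 10 markers of activated microglia: Trem2, Tyrobp, Axl, Itgax, Clec7a, Apoe, Lpl, Spp1, Cst7 and Cd9. They were chosen by name, and 9 of the 10 had a row among the 26131 genes of the deposited count table. Clec7a had none and is not analysed here. The 9 genes were read in nuclei labelled microglia and in nuclei labelled perivascular macrophages, animal by animal.

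The study compared ways of bringing an antisense oligonucleotide (ASO) against Malat1, a long noncoding RNA of the nucleus, into the brain through the transferrin receptor (TfR). The 17 mice were females aged 2.3 months, and every one, saline controls included, was homozygous for a knock-in of human TfR. Each mouse was dosed intravenously 4 times with saline (n = 4), the unconjugated Malat1 ASO at 2 mg/kg (n = 4), anti-TfR:Malat1 at 50 mg/kg (n = 6) or OTV:Malat1 at 50 mg/kg (n = 3). Anti-TfR:Malat1 carries the oligonucleotide on an antibody to TfR, and OTV, the oligonucleotide transport vehicle, on an Fc fragment engineered to bind TfR. The posterior brain was taken 72 hours after the last dose and its nuclei were profiled by droplet-based (10x) RNA sequencing.

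Microglia are the resident macrophages of the brain, and perivascular macrophages lie along its vessels. In neurodegeneration, demyelination and ageing, microglia can lower their homeostatic genes and raise a shared set of genes for lipid uptake, lysosomal digestion and phagocytosis. TREM2, a surface receptor for lipids, signals through the adaptor TYROBP, whose cytoplasmic ITAM motif recruits the kinase SYK. Antibodies can also engage these cells through Fc receptors, several of which signal through an ITAM-bearing chain. Apoe, Cst7, Lpl, Itgax, Clec7a, Axl, Spp1 and Cd9 are commonly read as products of the activated state.

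The promoters of Trem2 and Axl are shown because these genes lay on opposite sides of the comparison of the 2 macrophage classes. Each sequence is the 250 bases upstream of the RefSeq start (GRCm38.p6), 5′ to 3′ on the gene's own strand. The match to GAGGAA, the core of the motif of the myeloid factor PU.1, is in capitals in its reverse form, TTCCTC.
Trem2 (chr17:48346151-48346400, plus strand): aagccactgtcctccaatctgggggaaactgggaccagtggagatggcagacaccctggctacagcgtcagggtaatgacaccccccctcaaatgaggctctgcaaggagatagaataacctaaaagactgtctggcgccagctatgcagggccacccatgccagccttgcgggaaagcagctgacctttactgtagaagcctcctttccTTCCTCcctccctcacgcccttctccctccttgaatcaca
Axl (chr7:25788734-25788983, minus strand): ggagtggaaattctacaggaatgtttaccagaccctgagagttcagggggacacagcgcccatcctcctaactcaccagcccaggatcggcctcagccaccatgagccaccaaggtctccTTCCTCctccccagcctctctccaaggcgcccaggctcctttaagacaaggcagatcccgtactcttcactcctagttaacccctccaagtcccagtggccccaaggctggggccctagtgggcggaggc
The match begins 40 bases before the start of Trem2 and 130 bases before that of Axl. On either strand the 6 letters occur in 23.3% of all 32851 promoter windows of this length, and in 5 of the 10 windows of the 7 members with an entry, which belong to 4 genes. A match is a description of the letters and was not tested for binding.

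The microglia class held 8092 nuclei (341 to 695 per animal, median 989 unique molecular identifiers, UMIs, per nucleus). The perivascular macrophage class held 596 (22 to 57 per animal, median 925 UMIs). Totals per animal were 306098 to 752126 UMIs in microglia and 19630 to 63236 in macrophages, so 1 UMI in a macrophage sum is a large step. Levels are in CPM, a gene's UMIs per 1000000 UMIs of the class in that animal. The 8 microglia markers summed to group means of 6579 to 6844 CPM in microglia and 1893 to 2160 in macrophages, and the 10 macrophage markers to 203 to 239 and 11352 to 13025 CPM. Of single markers, Tmem119 was at 91.4 CPM in microglia and 2.99 in macrophages, and F13a1 at 0.0782 and 3898. Of 273792 cell barcodes, 10044 (3.67%) occurred in at least 2 animals, with 50 to 110 shared by any pair.

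Trem2 (GRCm38 chromosome 17, 48346401 to 48354147), the receptor, was most abundant in microglia among 7 classes of nuclei. Its level over the 17 animals was 146 ± 20.7 CPM (SD) in microglia, 59.7 ± 43.8 in macrophages and 0.557 ± 0.213 in neurons. Microglia exceeded macrophages in 17 of 17 animals. After each nucleus was thinned to 500 UMIs, 7.53% of microglia and 0.0322% of neurons held a Trem2 UMI, against 13.95% and 0.292% before thinning, when neurons were deeper (median 4845 UMIs). Across the 20 deposited clusters the genes most like Trem2 were Ntpcr (Pearson r = 0.993) and C1qc (r = 0.991), a complement subunit, over clusters that share libraries and differ in depth.

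Tyrobp, the adaptor, was at 76.2 ± 16.9 CPM in microglia and 112 ± 70.2 in macrophages (SD, n = 17). Macrophages were higher in 11 animals and microglia in 6, and the ranges overlapped. Neurons stood at 0.678 CPM. The most similar genes across clusters were C1qa (r = 0.984) and Lyz2 (r = 0.978), a complement subunit and a lysozyme. In 8092 microglia, 95 nuclei held UMIs of both Trem2 and Tyrobp, 1034 of Trem2 alone and 518 of Tyrobp alone.

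Axl, a receptor kinase for phosphatidylserine-bound ligands that takes part in clearing dead cells, had the reverse distribution to Trem2. It was at 3.27 ± 3.73 CPM in microglia and 56.7 ± 56.7 in macrophages (SD, n = 17). Macrophages were higher in 14 animals, microglia in 1, and both were at 0 in 2. Vascular nuclei (63.2 CPM) and astrocytes (40.1 CPM) were near the macrophage level, and the genes most like Axl across clusters were Mmp14 (r = 0.953) and Aqp4 (r = 0.949), the latter an astrocyte water channel.

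Itgax, which encodes the integrin CD11c, was close to undetected. Microglia gave 3 UMIs in all, 2 from saline replicate 4 and 1 from Malat1 ASO replicate 4, and macrophages gave 1, also from saline replicate 4. No UMI was seen in 2725 microglia of anti-TfR:Malat1 mice, which allows a share of nuclei with a UMI of up to 0.110%, or in 1248 of OTV:Malat1 mice, which allows up to 0.240%. These limits cover counting error only.

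Apoe (chromosome 7, 19696109 to 19699188), the main lipid carrier of the brain, was higher in macrophages than in microglia by the largest difference in CPM among the 9 genes, while the ratio of means was larger for Axl (17.3). It was at 1541 ± 600.1 CPM in macrophages and 171 ± 28.7 in microglia (SD, n = 17), a ratio of means of 8.99. Macrophages were higher in 17 of 17 animals and the ranges, 659.6 to 2877 and 115 to 235, did not meet. Among the 7 classes, microglia ranked number 6 for Apoe: astrocytes stood at 1256 CPM, vascular nuclei at 406, cluster 13 at 367, oligodendrocytes at 228 and neurons at 33.0. Cluster 13 is named by number because its deposited labels were mixed. At 500 UMIs, 38.4% of macrophages, 8.64% of microglia and 2.02% of neurons held an Apoe UMI. The most similar genes across clusters were Cd81 (r = 0.955) and S100a1 (r = 0.949).

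Lpl, the lipase that frees fatty acids from lipoproteins, was at 6.57 ± 5.28 CPM in microglia, 2.88 in macrophages and 3.77 in neurons. In the neuron clusters it reached 11.6 CPM in cluster 5, and its nearest genes were Fibcd1 (r = 0.818) and Spink8 (r = 0.800). Spp1, the secreted phosphoprotein osteopontin, was highest in vascular nuclei at 33.4 CPM, against 3.08 in microglia and 6.57 in macrophages. Cst7, a cysteine protease inhibitor, was at 0.469 CPM in microglia, from 4 UMIs, and at 0.418 in neurons. No macrophage held a Cst7 UMI (0 of 596, which allows a share of up to 0.503%). Neither Itgax, Spp1 nor Cst7 reached 10 CPM in any cluster, so no similar genes were sought.

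Cd9 (chromosome 6, 125460266 to 125494791), a tetraspanin of the cell surface, was at 183 ± 55.4 CPM in microglia and 69.2 ± 52.0 in macrophages, with microglia higher in 15 of 17 animals. It was not particular to them, since cluster 13 stood at 166 CPM and oligodendrocytes at 143, while neurons stood at 8.59. Its most similar genes across clusters were Gm28809 (r = 0.983), which overlaps it on the opposite strand, and Map4k4 (r = 0.970). No source used here says whether the counting used strand, and reads of Cd9 and of Gm28809 (22.8 CPM in microglia) may not be separable. Spp1 is overlapped in the annotation by Gm42793 on its own strand, which had no row in the count table.

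**Figure D1:**
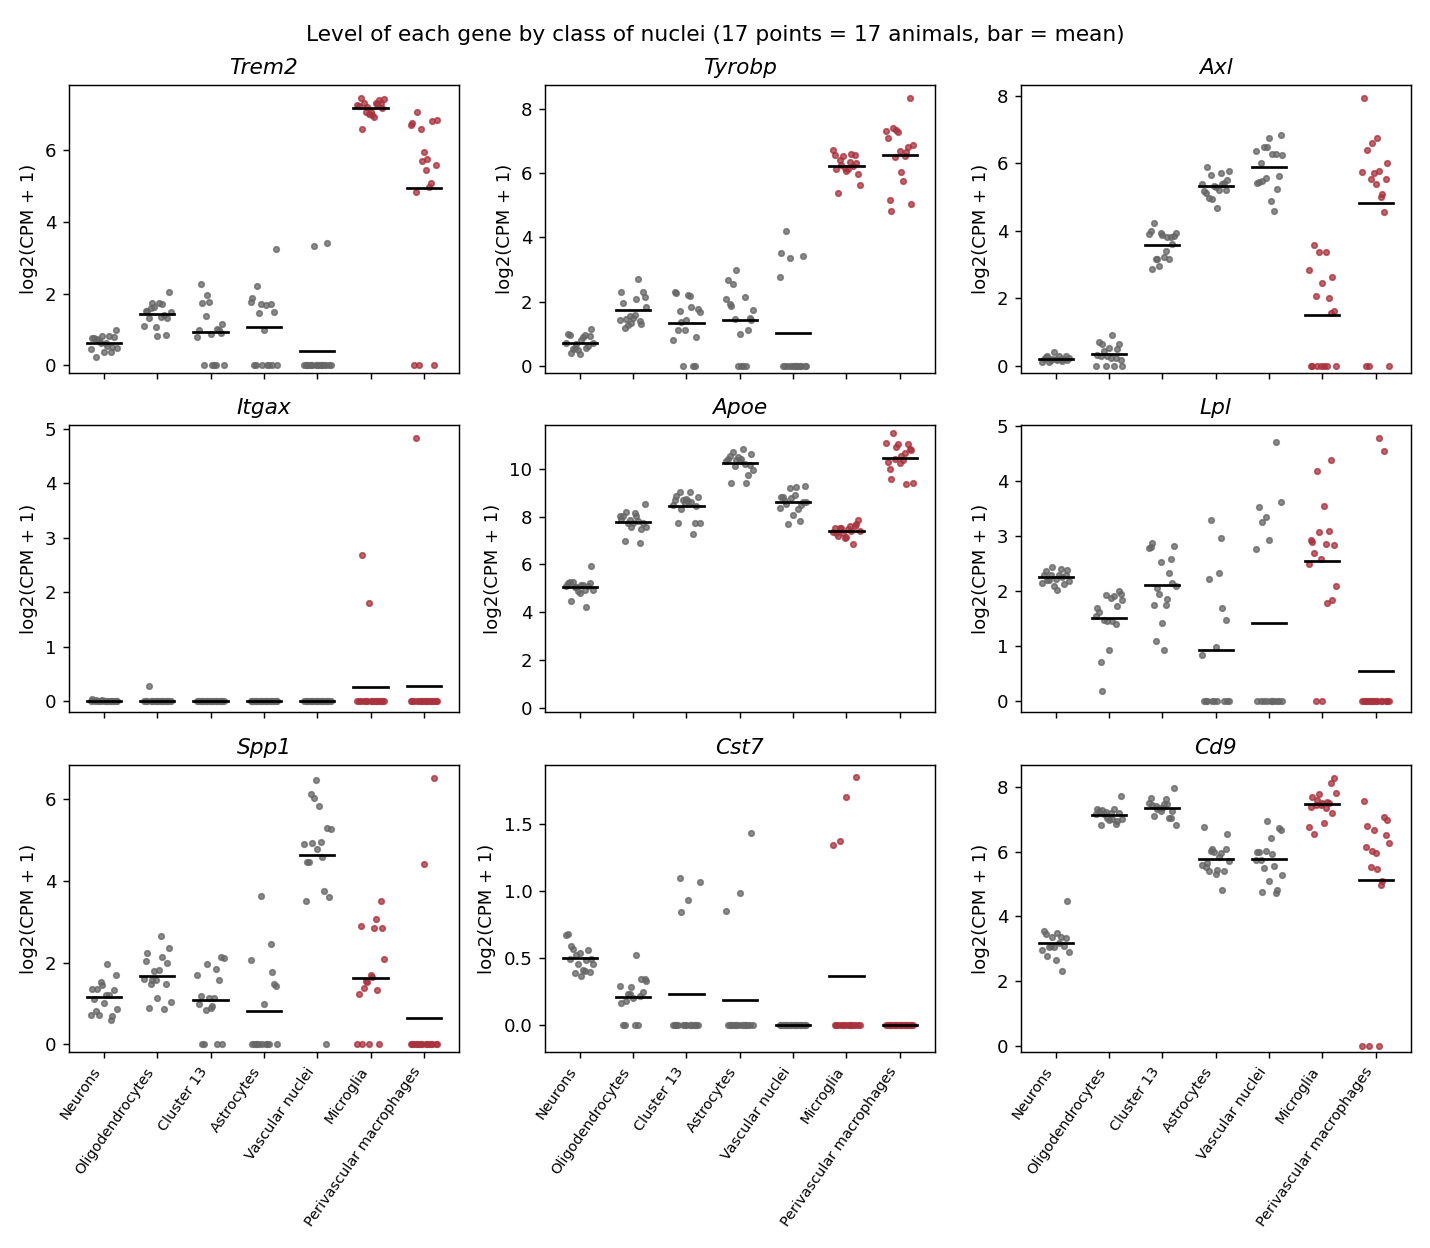
Level of each of the 9 genes as log2(CPM + 1) in 7 classes of nuclei; each point is 1 of 17 animals, the bar is the mean of the log values, and microglia and perivascular macrophages are in red. The means of Trem2 and Tyrobp are highest in the red classes, Apoe is lower in microglia than in astrocytes and macrophages, and the means of Itgax and Cst7 are near 0 in every class, with Itgax at 27.5 CPM in the macrophages of 1 animal.

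The sparsely counted members were not seen together in 1 nucleus. At least 1 UMI of Axl, Itgax, Lpl, Spp1 or Cst7 was present in 101 of 8092 microglia (1.25%), and none held UMIs of 2 of these 5 genes (0 of 8092, which allows up to 0.0371%). In this order the genes were present in only 22, 3, 50, 22 and 4 microglia. At such counts nuclei with 2 of them would be rare even for independent genes, so the 0 does not tell whether they go together. In macrophages the counts were 34 of 596 with at least 1 and 0 with 2. The microglia share per animal was 1.27 ± 0.437% in saline mice (SD, n = 4) and 1.12 ± 0.487% with the ASO (n = 4). It was 1.40 ± 0.521% with anti-TfR:Malat1 (n = 6) and 1.24 ± 0.601% with OTV:Malat1 (n = 3). The 4 means lay within 1 SD of each other. At a median of 989 UMIs a nucleus that transcribes several of these genes at a low level could still show none.

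The first question across treatments was whether any member differed in microglia. Summed counts per animal were compared with edgeR's quasi-likelihood test over all genes that passed a count filter, with Benjamini-Hochberg adjustment and a threshold of 0.05. Of the 9 members, 4 passed the filter among 8685 genes: Trem2, Tyrobp, Apoe and Cd9. None of the 4 was called for Malat1 ASO against saline (background 0.00% of genes), for anti-TfR:Malat1 against saline (0.00%), for OTV:Malat1 against saline (0.00%) or for OTV:Malat1 against anti-TfR:Malat1 (0.00%). At an unadjusted p under 0.05 edgeR had 197, 248, 395 and 336 genes in these comparisons (2.27%, 2.86%, 4.55% and 3.87%), of which 0, 0, 1 and 0 were members, and DESeq2 called 0 genes in each, with 95, 137, 206 and 162 at an unadjusted p under 0.05. The median change over all genes was within 0.01 of 0 on the log2 scale. The 3 comparisons with saline share its 4 animals.

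Malat1, the target, was read as a check of the labels. Its log2 change in microglia of OTV:Malat1 against saline mice was -0.59 ± 0.12 (SE), with an unadjusted p of 3.69e-05 and an adjusted p of 0.320 in the edgeR fit. For anti-TfR:Malat1 against saline the change was -0.18 ± 0.10 (adjusted p = 1.00) and for the unconjugated ASO 0.01 ± 0.11 (adjusted p = 1.00). Mean levels in microglia were 50170 CPM for saline and 34100 for OTV:Malat1. The main fit did not call even this drop of the target, so 0 genes called does not show that none changed. In oligodendrocytes the means were 103300 CPM for saline, 98630 for the ASO, 69390 for anti-TfR:Malat1 and 14050 for OTV:Malat1. ASO values lay near saline and do not check that label. In macrophages the change for OTV:Malat1 against saline was -0.65 ± 0.17 (adjusted p = 0.474). With no filter on low counts edgeR called Malat1 for OTV:Malat1 against saline in microglia (log2 change -0.63, adjusted p = 1.17e-08) and macrophages (-0.76, adjusted p = 0.0070), and in microglia of OTV:Malat1 relative to anti-TfR:Malat1 (-0.44, adjusted p = 0.00206).

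Trem2 in microglia was at 154, 152, 175 and 95.5 CPM in saline replicates 1 to 4. Malat1 ASO mice had 159, 134, 147 and 128 CPM, anti-TfR:Malat1 mice 121 to 169 with a median of 145, and OTV:Malat1 mice 159, 144 and 173. Saline replicate 4 was the lowest of all 17, and the 4 groups overlapped. The log2 change was -0.02 ± 0.16 (SE) for the ASO, -0.01 ± 0.14 for anti-TfR:Malat1 and 0.08 ± 0.17 for OTV:Malat1 against saline. The 95% interval of the OTV:Malat1 fold change ran from 0.825 to 1.35. In nuclei of at least 1000 UMIs the OTV:Malat1 log2 change was -0.27 (unadjusted p = 0.280, adjusted p = 0.969, edgeR).

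Tyrobp was at 104, 94.4, 68.2 and 40.9 CPM in the microglia of saline mice. In Malat1 ASO mice it was at 84.3, 74.7, 91.2 and 70.4, in anti-TfR:Malat1 mice at 65.2 to 95.5 with a median of 77.3, and in OTV:Malat1 mice at 78.1, 61.9 and 49.0. Saline replicates 1 and 2 were above all OTV:Malat1 mice and saline replicate 4 below them. The log2 change for OTV:Malat1 was -0.37 ± 0.25 (SE, adjusted p = 0.975, edgeR) with saline as the reference and -0.35 ± 0.24 (adjusted p = 0.971) with anti-TfR:Malat1 as the reference. Without saline replicate 4 the former was -0.54 (unadjusted p = 0.0237, adjusted p = 0.999, edgeR). Without OTV:Malat1 replicate 1 it was -0.56 (0.0644 and 0.782), and in nuclei of at least 1000 UMIs it was -0.18 (0.551 and 0.981).

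Apoe in microglia was at 164, 186, 158 and 147 CPM in saline mice and at 183, 184, 158 and 136 in Malat1 ASO mice. Anti-TfR:Malat1 mice had 115 to 193 CPM with a median of 174, and OTV:Malat1 mice 206, 235 and 167. OTV:Malat1 replicates 1 and 2 were above every other animal, and replicate 3 lay inside the saline range. The log2 change for OTV:Malat1 was 0.27 ± 0.17 (SE, adjusted p = 0.975, edgeR) relative to saline and 0.30 ± 0.16 (adjusted p = 0.971) relative to anti-TfR:Malat1. Without OTV:Malat1 replicate 2 the change against saline was 0.16. That animal also had the highest Apoe of all 17 in oligodendrocytes (370 CPM, next 296), vascular nuclei (618, next 604) and neurons (59.4, next 37.9), but not in astrocytes (1581, highest 1827), cluster 13 (458, highest 525.7) or macrophages. Anti-TfR:Malat1 replicate 5, lowest for Apoe in microglia and macrophages, was also lowest in oligodendrocytes (120.1 CPM), astrocytes (672), cluster 13 (154) and neurons (17.8).

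Cd9 was the only member with an unadjusted p under 0.05 in microglia in the edgeR fit of all 17 animals. It was at 107, 166, 207 and 92.7 CPM in saline mice, 173, 194, 218 and 173 in Malat1 ASO mice, 118 to 280 with a median of 180.5 in anti-TfR:Malat1 mice, and 146, 310 and 222 in OTV:Malat1 mice. Saline replicates 1 and 4 were below every treated animal, OTV:Malat1 replicate 2 was the highest of all 17, and each treated group overlapped the range of saline. The log2 change was 0.40 ± 0.23 (SE) for the ASO, 0.35 ± 0.21 for anti-TfR:Malat1 and 0.62 ± 0.25 for OTV:Malat1 against saline. The last had an unadjusted p of 0.0175 and an adjusted p of 0.975 in the edgeR fit. For anti-TfR:Malat1 the change was 0.29 with batch as a block and 0.18 with replicate number as a block. The latter rests on replicates 1 to 4, since no other group has replicates 5 and 6. The 3 comparisons share the low saline values of replicates 1 and 4. The overlapping Gm28809 had microglial log2 changes of 0.57 ± 0.51, 0.38 ± 0.49 and 1.00 ± 0.55 (SE) in the same order, the last with an unadjusted p of 0.0774 and an adjusted p of 0.975 (edgeR), and its means were 17.1 CPM for saline and 33.6 for OTV:Malat1. Its part in the Cd9 values was not tested.

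OTV:Malat1 replicate 2, the animal with the highest Cd9, also had the highest sum of oligodendrocyte markers in its microglia (1405 CPM). The sum averaged 567 CPM in saline mice (range 322 to 754) and 576 with the ASO (465.6 to 691). It averaged 559 with anti-TfR:Malat1 (323 to 720.05) and 832 with OTV:Malat1 (480.2 to 1405). All 6 of these markers were detected and all 6 had a positive log2 change for OTV:Malat1 against saline, with a median of 0.59 and none called. Oligodendrocytes had 143 CPM of Cd9 and 228 of Apoe, and the part of these transcripts in the microglial values of either gene was not tested. Cd9 in OTV:Malat1 replicate 2 was also the highest of all 17 animals in oligodendrocytes (209.7 CPM, next 158), cluster 13 (248, next 200.3) and neurons (21.4, next 10.7). It was not the highest in astrocytes (93.6, highest 107.9), vascular nuclei (101, highest 123) or macrophages (126.5, highest 187.5). Saline replicate 4 was the lowest in oligodendrocytes (113, next 114). It was not the lowest in cluster 13 (138, lowest 112), astrocytes (49.8, lowest 27.1), vascular nuclei (52.4, lowest 25.2) or macrophages (110, lowest 0). Without OTV:Malat1 replicate 2 the Cd9 change against saline was 0.31 (unadjusted p = 0.263, adjusted p = 0.999, edgeR). Without OTV:Malat1 replicate 1 it was 0.85 (0.0026 and 0.731). When the OTV:Malat1 animal was set against the saline animal of its own batch, the log2 ratio of Cd9 was -0.19 for batch 2, 0.58 for batch 3 and 1.26 for batch 4.

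**Figure D2:**
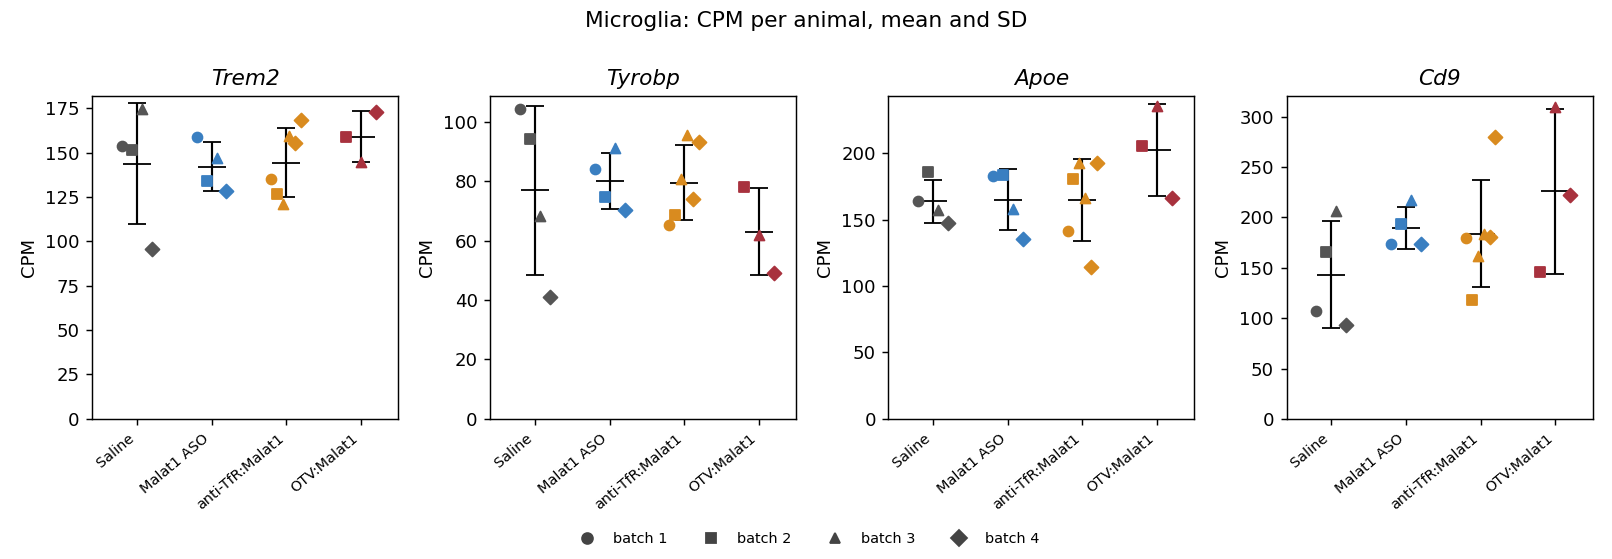
CPM of Trem2, Tyrobp, Apoe and Cd9 in the microglia of each animal, by treatment; points are animals, shapes the 4 deposited batches, and the bar and whiskers the mean and SD. Groups overlap for each gene, with saline replicate 4 (diamond) lowest for Trem2, Tyrobp and Cd9 and OTV:Malat1 replicate 2 (triangle) highest for Cd9 at 310 CPM.

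The 5 other members gave too few UMIs in microglia for the filter. Their levels are described without a test, apart from Spp1 in a fit with no filter on low counts. Axl was at 0 in 7 of 17 animals and at most at 10.9 CPM, in saline replicate 4. Group means were 4.26 CPM for saline, 3.12 for the ASO, 3.14 for anti-TfR:Malat1 and 2.42 for OTV:Malat1. Lpl was at 4.61, 6.65, 6.39 and 5.46 CPM in saline mice and at 2.60, 6.19 and 3.27 in OTV:Malat1 mice, and it ranged from 0 to 17.2 with the ASO and from 0 to 19.8 with anti-TfR:Malat1. Each of these Lpl values came from at most 10 UMIs. Cst7 gave 1 UMI in each of the 4 groups.

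Spp1 gave 4 UMIs over the 4 saline mice, 3 over the Malat1 ASO mice, 8 over the anti-TfR:Malat1 mice and 8 over the 3 OTV:Malat1 mice. Its level was 0, 1.33, 6.39 and 0 CPM in saline mice and 10.4, 6.19 and 3.27 CPM in OTV:Malat1 mice. The means, 1.93 ± 3.04 and 6.62 ± 3.59 CPM (SD, n = 4 and 3), differed by more than either SD, and the ranges overlapped. In the same microglia the 4 fibroblast-like markers summed to 3.76 CPM with saline (range 1.33 to 6.39) and 10.6 with OTV:Malat1 (8.26 to 13.1). The 4 mural markers, of which Notch3 was at 0, summed to 3.93 (0 to 7.68) and 11.5 CPM (6.53 to 15.6), and the 4 endothelial markers to 52.1 (35.9 to 79.8) and 34.8 CPM (26.0 to 39.2). The part of vascular transcripts in the Spp1 values was not tested. With no filter on low counts, in an edgeR fit of 20599 genes of which 0.00485% were called, the log2 change of Spp1 for OTV:Malat1 against saline was 1.70 ± 0.91 (SE, adjusted p = 0.8996).

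In perivascular macrophages Apoe alone passed the filter, among 964 genes. It was not called in the comparison of Malat1 ASO with saline (background 0.00%), of anti-TfR:Malat1 with saline (0.00%), of OTV:Malat1 with saline (0.00%) or of OTV:Malat1 with anti-TfR:Malat1 (0.00%). edgeR gave 40, 39, 35 and 43 genes with an unadjusted p under 0.05 (4.15%, 4.05%, 3.63% and 4.46%), and DESeq2 called 0 genes and gave 28, 25, 18 and 22. Apoe was at 2156, 1259, 1018 and 769.9 CPM in saline mice and at 2877, 1354, 1923 and 2140 in Malat1 ASO mice. Anti-TfR:Malat1 mice ranged from 659.6 to 2106 CPM with a median of 1413, and OTV:Malat1 mice had 1825, 1755 and 691. Each Malat1 ASO animal exceeded 3 of the 4 saline animals, and saline replicate 1 exceeded 3 of the 4 ASO animals.

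The log2 change of Apoe in macrophages was 0.69 ± 0.28 (SE) for Malat1 ASO against saline, with an unadjusted p of 0.0170 and an adjusted p of 0.974 (edgeR). For anti-TfR:Malat1 it was 0.13 ± 0.25 and for OTV:Malat1 0.16 ± 0.30, which turned to -0.41 and -0.67 in nuclei of at least 1000 UMIs. That refit kept only animals with at least 10 such nuclei, so the animals changed along with the depth. Saline replicates 3 and 4 (1018 and 769.9 CPM), Malat1 ASO replicates 2 and 4, anti-TfR:Malat1 replicate 4 and OTV:Malat1 replicate 1 were not in it. It thus set ASO replicates 1 and 3, and OTV:Malat1 replicates 2 and 3, against saline replicates 1 and 2. Set against the saline animal of its own batch, each ASO animal was higher, with log2 ratios of 0.42, 0.11, 0.92 and 1.47 for batches 1 to 4. In batch 4 Apoe in the saline animal was also below that of the ASO animal in astrocytes (679 and 1456 CPM), cluster 13 (213 and 382), oligodendrocytes (125 and 187), vascular nuclei (399 and 439) and neurons (21.2 and 29.0). In microglia of batch 4 it was above (147 and 136). In batch 3 the saline animal was above the ASO animal in astrocytes (1491 and 1318), cluster 13 (469 and 415) and oligodendrocytes (262 and 234). There it was lower in vascular nuclei (452 and 587) and near equal in microglia (157.6 and 158.1). In batch 1 the saline animal was below the ASO animal in astrocytes (1281.4 and 1685.9) and cluster 13 (364.4 and 525.7). It was also below in vascular nuclei (333.2 and 370.7) and microglia (164.3 and 182.8). In batch 2 the saline animal was above in astrocytes (1386.8 and 1116.5) and cluster 13 (415.55 and 318.2). It was also above in vascular nuclei (458.3 and 205.7) and microglia (186.1 and 183.9). The ASO change was 1.03 without saline replicate 1 (adjusted p = 0.557, edgeR). In those deeper nuclei and fewer animals it was 0.30. Of all macrophages 60.4% were below 1000 UMIs, and the deeper nuclei of the dropped animals were left out as well. The Apoe change in macrophages was set against that in microglia of the same animals by an exact two-sided permutation of animals on log2(CPM + 1). The gap between classes was 3.602 ± 0.516 with the ASO and 2.88 ± 0.574 with saline (SD, n = 4 each, exact p = 0.0857, 0.343 adjusted over 4 comparisons, without use of the batches), and the other 3 comparisons had exact p of 0.333 to 0.743. Within batches 1 to 4 the gap was larger in the ASO animal by 0.263, 0.122, 0.913 and 1.59.

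The remaining members were described in macrophages from 0 to 61 UMIs in all 17 animals. Tyrobp was at 156, 134, 35.1 and 27.5 CPM in saline mice, with a group mean of 88.1, and the means were 143 for the ASO, 87.1 for anti-TfR:Malat1 and 155 for OTV:Malat1. OTV:Malat1 replicate 1 stood highest at 319 CPM. Trem2 had means of 59.6, 70.2, 55.5 and 54.2 CPM and Cd9 of 91.9, 52.8, 50.4 and 98.2 in the same order of groups. Axl was at 51.9, 241, 0 and 82.5 CPM in saline mice, a mean of 93.9, against means of 48.1, 47.8 and 36.3 in the treated groups. Saline replicate 2 set that mean, with 9 of the 14 saline UMIs. Lpl gave 2 UMIs in anti-TfR:Malat1 macrophages and Spp1 gave 1 there and 2 in those of OTV:Malat1 mice, with 0 UMIs of either gene in saline and Malat1 ASO macrophages.

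**Figure D3:**
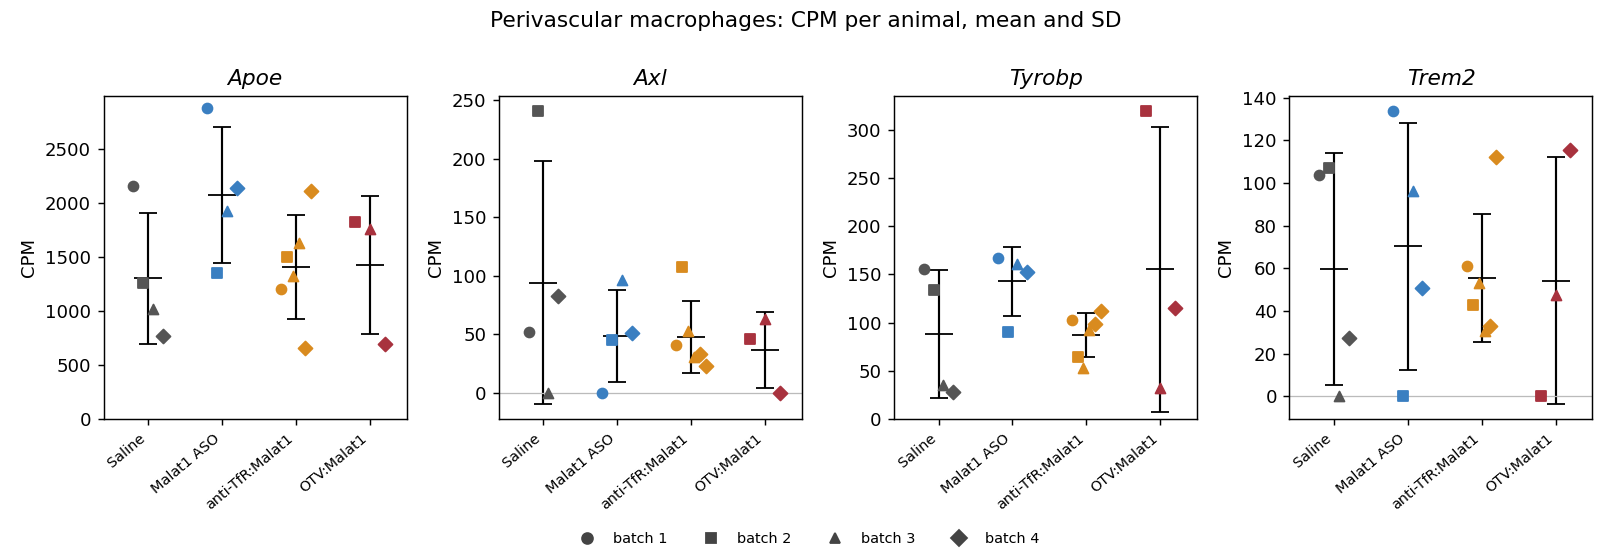
CPM of Apoe, Axl, Tyrobp and Trem2 in the perivascular macrophages of each animal, by treatment; points are animals, shapes the 4 batches, and the bar and whiskers the mean and SD. Groups overlap for every gene shown, and Axl and Trem2 are at 0 in some animals of 3 groups, where 22 to 57 nuclei were counted per animal.

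**Figure D4:**
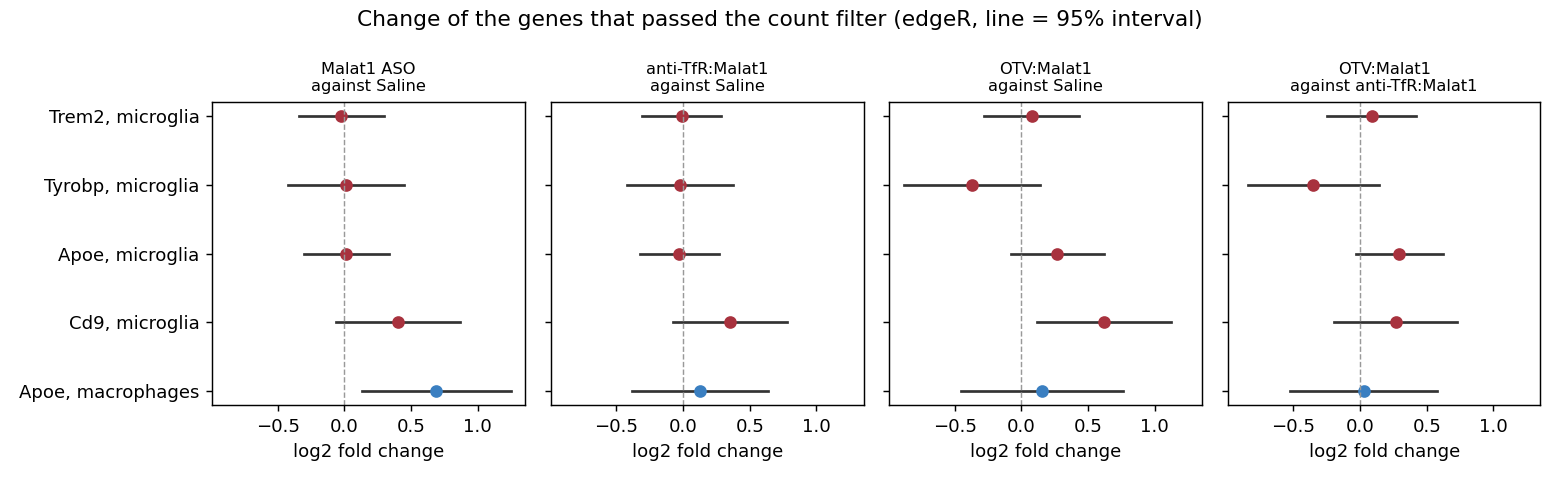
Log2 fold change of the members that passed the count filter in 4 comparisons; points are edgeR estimates (red for microglia, blue for macrophages) and lines their 95% intervals. Only Cd9 for OTV:Malat1 against saline (0.62) and macrophage Apoe for Malat1 ASO against saline (0.69) have intervals clear of 0 before adjustment, and neither passed after it.

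The other genes of the pathway were read from lists. Of 30 further activation genes, such as cathepsins, Cd68 and Lgals3, 18 were tested in microglia and 0 were called in any comparison. Their median log2 change was -0.08 for the ASO, 0.03 for anti-TfR:Malat1 and 0.16 for OTV:Malat1 against saline, where the median over all genes was 0.00. Fth1, the ferritin heavy chain, was at 480.2 CPM in saline and 621 in OTV:Malat1 mice (log2 change 0.34 ± 0.28, SE), and Apbb2 at 289 and 288 CPM. Of 20 homeostatic genes, all 20 were tested and 0 were called, with medians of 0.04, -0.05 and -0.09 in the same order. Tgfbr1, a TGF-β receptor, was at 2659 CPM in saline and 2553 in OTV:Malat1 mice, and Mertk, a receptor for dead cells, at 2137 and 1936.

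Of 15 Fc receptor and ITAM signalling genes, 12 were tested in microglia and 0 were called. Their medians were 0.01, -0.01 and -0.04 for the ASO, anti-TfR:Malat1 and OTV:Malat1 against saline. Inpp5d, a phosphatase that restrains this pathway, was at 2324 CPM in saline and 2356 in OTV:Malat1 mice, and the kinase Lyn at 1567 and 1532. Of 20 lipid handling genes, 13 were tested and 0 called, with medians of -0.04, -0.15 and -0.12. Abca1, which loads lipid onto apolipoproteins, was at 381 CPM in saline and 360.1 in OTV:Malat1 mice, and the receptor Lrp1 at 309 and 343. Of 20 interferon response genes, 4 were tested and 0 called, with medians of -0.48, -0.27 and -0.17. Relative to saline, 0 of these 4 genes were higher and 4 lower for the ASO, 2 of them at an unadjusted p under 0.05 (2.27% of all genes). For anti-TfR:Malat1 0 were higher and 4 lower, and for OTV:Malat1 1 was higher and 3 lower. In macrophages 4, 11, 7, 1 and 0 genes of these 5 lists were tested and 0 were called. The 4 further activation genes there had a median log2 change of 0.75 for OTV:Malat1 against saline, and 3 of them, named here after their values were seen, had an unadjusted p under 0.05, as had 3.63% of all genes tested. These were Fth1 (0.67), the growth factor Igf1 (0.84) and the MHC class II invariant chain Cd74 (1.30), each with an adjusted p of 0.981 (edgeR), while Ctsb stood at -0.05. In the same macrophages the sum of the 6 oligodendrocyte markers averaged 547 CPM with saline (range 390 to 804) and 779 with OTV:Malat1 (461 to 1328). The 1 of these markers that was tested had a log2 change of 0.73 and an unadjusted p under 0.05, and the part of such transcripts in the values above was not tested.

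The classes themselves were compared as a share of all nuclei. Microglia made up 3.17 ± 0.662% (SD) for saline, 3.14 ± 0.467% for the ASO, 2.70 ± 0.668% for anti-TfR:Malat1 and 2.38 ± 0.161% for OTV:Malat1. Exact two-sided permutation of animals gave p = 0.943, 0.295 and 0.114 against saline, where 3 against 4 animals cannot go below 0.0571. This test did not use the batches, in each of which the OTV:Malat1 animal had a lower microglia share than the saline animal (2.45 and 3.99% for batch 2, 2.49 and 2.87% for batch 3, 2.20 and 2.46% for batch 4). Macrophages made up 0.210 ± 0.0409%, 0.162 ± 0.0251%, 0.241 ± 0.0371% and 0.214 ± 0.0844% of nuclei, with exact p of 0.114, 0.238 and 0.971 against saline. Adjusted over the 8 comparisons, no p was below 0.457.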

How the data were processed

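The authors deposited whole-number UMI counts per gene and nucleus, per the file headers, with metadata that gave cell type label, cluster, doublet call and batch; Cell Ranger 6.0.1, Seurat 4 and mm10 are named in the submitters' processing notes. The summed count of every nucleus equalled its total in the metadata (0 of 284074 differed). The authors' doublet and label scores, deposited as fractions between 0 and 1, entered no calculation. Of the metadata, 9 columns were not used. What a batch stands for is not given in the sources used here. Microglia and perivascular macrophages were the nuclei with that deposited label in cluster 11. Authors' doublets (3 and 1 nuclei) stayed in. Counts were summed per animal and class and tested with edgeR 4.0.16 (R 4.3.3; filterByExpr, TMM, glmQLFTest, all 17 animals in 1 fit). DESeq2 1.42.0 was an alternative. Shares of nuclei with a UMI of a single member were taken after thinning to 500 UMIs unless given as unthinned. Counts and shares of nuclei with any or several of a set of members were not thinned. Each animal was 1 sample. Gene positions were read from GENCODE M21 (GRCm38). Similar genes were ranked by Pearson correlation of log2(CPM + 1) over clusters, among 13745 genes with at least 10 CPM in 1 cluster. Named list genes were, by rule, the 2 with the highest saline level in each list and any called; the interferon list is given by its counts alone, some genes are not reported here, and the further activation genes named in macrophages were outside the rule. The members and lists were chosen with earlier results of these data known. Fits were tested on simulated data with larger changes than those of the members in the main fit and with no batch effect. Whether they find changes as small as those of the members was not tested.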

Additional observations from a re-analysis of the deposited data

Results flagged for a closer look

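Each of 36 groups of 4 to 6 animals was searched for an animal far from the others, and chance marks about 1 in 20 such groups. Trem2 UMIs were present in 3.96% of thinned microglia of saline replicate 4, against 8.53 to 9.41% in the other 3 saline mice. Apoe UMIs were present in 9.84% of thinned microglia of saline replicate 2, against 8.24 to 8.44% in the other 3. In macrophages of anti-TfR:Malat1 mice the thinned Apoe share was 14.7% in replicate 5 and 38.1 to 50% in the other 5.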

How the results depend on the processing

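Over 390 refits of a member's change (11 alternatives of processing and fits that left out 1 animal), 0 passed the threshold. The lowest adjusted p was 0.443 (edgeR), for Cd9 in OTV:Malat1 against saline with no filter on low counts. In 52 refits the sign was opposite. With no filter, microglia gave 3 calls other than Malat1 for Malat1 ASO against saline (Nrxn3, Tsix and Gm47283) and 1 for OTV:Malat1 against anti-TfR:Malat1, none a member, and macrophage Apoe in the latter comparison was -0.071. In nuclei of at least 1000 UMIs the log2 change in microglia against saline was -0.013 for Tyrobp and -0.016 for Apoe with the ASO, 0.083 for Tyrobp with anti-TfR:Malat1 and -0.27 for Trem2 with OTV:Malat1, and -0.20 for Trem2 in OTV:Malat1 against anti-TfR:Malat1. Macrophage Apoe in such nuclei was -0.41 for anti-TfR:Malat1 and -0.67 for OTV:Malat1 against saline, and -0.26 between the 2 conjugates. Animals with fewer than 10 such macrophage nuclei were left out of that refit, saline replicates 3 and 4 among them. With labels taken without the cluster rule, microglial Apoe was -0.015 for the ASO, microglial Tyrobp 0.00289 for anti-TfR:Malat1 and macrophage Apoe -0.058 between the conjugates. The causes were not tested.

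The number equals the batch for saline and ASO animals, whose same-numbered pairs in microglia had correlations of -0.037 to 0.23 in their deviations from group means. Same-numbered anti-TfR:Malat1 and saline animals of 1 batch had 0.15, 0.068 and 0.18. For the conjugates some same-numbered animals come from different batches, and there the correlations ran from -0.17 to 0.20. Not every pair exceeded 0.1, so the numbers were not taken to pair the animals. This rule does not tell whether batch pairs them, since the numbers mix batches for the conjugates. The main fits did not use batch, and fits with batch as a block are given beside them. With the replicate block, Cd9 was 0.59 for OTV:Malat1 and 0.18 for anti-TfR:Malat1 against saline, Apoe for anti-TfR:Malat1 0.039 in microglia, and macrophage Apoe between the conjugates -0.030, with 0 members called. Replicates 5 and 6 exist only for anti-TfR:Malat1, so they add nothing to these changes. With batch as a block, microglial Tyrobp and Apoe for anti-TfR:Malat1 were 0.036 and 0.011. Cd9 with that block was 0.39 for the ASO, 0.29 for anti-TfR:Malat1 and 0.52 for OTV:Malat1 against saline. Macrophage Apoe for the ASO against saline was 0.72 with the replicate block (unadjusted p = 0.0037, adjusted p = 0.902, edgeR). It was 0.70 with the batch block (0.0083 and 0.922).

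Leaving out 1 animal at a time turned the sign of changes of up to 0.27, the value for Cd9 between the conjugates. In microglia of Malat1 ASO against saline the ranges were -0.15 to 0.062 for Trem2, -0.16 to 0.19 for Tyrobp and -0.041 to 0.089 for Apoe. For anti-TfR:Malat1 they were -0.14 to 0.075, -0.19 to 0.16 and -0.071 to 0.074, for Trem2 with OTV:Malat1 -0.049 to 0.17, and for Cd9 between the conjugates -0.038 (without OTV:Malat1 replicate 2) to 0.49. Macrophage Apoe ranged from -0.043 to 0.50 for anti-TfR:Malat1, -0.12 to 0.53 for OTV:Malat1 and -0.25 to 0.36 between the conjugates. The ASO minus saline difference in the microglia share, -0.04 percentage points, was 0.030 without doublets and -0.27 to 0.24 with 1 animal left out. Against saline, that range was -0.71 to -0.20 for anti-TfR:Malat1 and -1.03 to -0.52 for OTV:Malat1. For macrophages the share difference ranged from -0.045 to 0.033 for OTV:Malat1 against saline and from -0.076 to 0.001732 between the conjugates. After thinning 8 of 9 members had a higher share of nuclei with a UMI in microglia than in neurons, and 5 did unthinned. The depth, a median of 989 UMIs in microglia, limits what can be seen of the 5 low members.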

Other observations

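Outside cluster 11, which holds the 2 macrophage classes, Trem2 was above 3 CPM in clusters 18 and 19 of the deposited clustering, at 24.3 and 30.8 CPM against 131 in cluster 11. Tyrobp was at 16.6 and 9.38 CPM there against 74.3. These clusters were not part of any class compared, and their nuclei were not examined further here.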
